A study of Sus scrofa with 12 samples.

Results

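The miR-17-92 cluster and its paralogs are groups of miRNA hairpins that lie close together on a chromosome and are cut from shared precursor transcripts. Their mature products were taken from a table of 457 pig miRNAs by name: miR-17, miR-18, miR-19, miR-20, miR-25, miR-92, miR-93, miR-106 and miR-363, with any letter or arm after the number. This gave 14 mature miRNAs of 457, and all 14 passed the filter on low values, as did 353 of the 457 in all. No row matched miR-25, miR-93 or miR-106b, and the miR-106b-25 cluster was not analysed here.

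The left ovaries came from sows of one commercial piggery, taken 4 days after the 4th delivery. Sows with small litter size (SLS) had 8.48 ± 0.53 piglets per litter and sows with large litter size (LLS) had 16.19 ± 0.43, with no allele or treatment named. The labels do not name the error behind the ±, and the statistics section of the study gives SEM for its results. The SLS ovaries were ZD2, ZD3 and ZD12 and the LLS ovaries ZD5, ZD7 and ZD8, each with 1 library of total RNA freed of ribosomal RNA and 1 library of small RNA. Each ovary came from its own sow, so the errors given below are those between 3 animals per group.

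A mature miRNA finds its targets mainly through its seed, bases 2 to 8 from the 5′ end, which pairs with matching sites in the 3′ ends of mRNAs and lowers their stability or translation. The products of these clusters fall into 4 seed families. They are known for promoting cell growth and survival through targets such as BCL2L11 and CDKN1A, and are switched on by MYC. In the mouse ovary miR-17-5p has been tied to the growth of vessels in the corpus luteum. The cluster on the X chromosome is a copy of the one on the autosome.

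The sequences below are shown because the families differ in the seed, while within a family most members differ in only a few bases, miR-363 excepted, which bears on how well reads can be told apart. They are given as the deposited table writes them, 5′ to 3′ with T for U, with the seed in capitals.
miR-17-5p: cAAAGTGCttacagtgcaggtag
miR-20a-5p: tAAAGTGCttatagtgcaggta
miR-106a: aAAAGTGCttacagtgcaggtagc
miR-20b: cAAAGTGCtcacagtgcaggtag
miR-18a: tAAGGTGCatctagtgcagata
miR-18b: tAAGGTGCatctagtgcagttag
miR-19a: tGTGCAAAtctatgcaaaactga
miR-19b: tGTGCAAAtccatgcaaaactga
miR-92a: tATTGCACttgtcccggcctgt
miR-92b-3p: tATTGCACtcgtcccggcctcc
miR-363: aATTGCACggtatccatctgtaa

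With positions counted from the 5′ end, miR-106a differed from miR-17-5p by C1A alone over 23 bases, and miR-20b by T10C alone. The miR-18 pair differed by T20A (miR-18b first) and the miR-19 pair by C11T (miR-19b first). In the miR-25/92 family, miR-92b-3p differed from miR-92a at 3 of 22 bases and miR-363 at 12 of 22. A read with 1 wrong base can therefore fall on the wrong member of the first 3 families, and whether the authors allowed a mismatch is not given in the sources used here. The other 3 members, miR-17-3p, miR-20a-3p and miR-92b-5p, are the opposite arms of their hairpins and share no seed with these families.

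In the RefSeq annotation of Sscrofa11.1, the build to which the reads were mapped, 13 of the 15 hairpins named in the table were found. The miR-17-92 cluster held 6 hairpins, MIR17, MIR18A, MIR19A, MIR20A, MIR19B-1 and MIR92A-1, within 782 nt at chr11:60734656-60735437 on the plus strand. The X cluster, miR-106a-363, held 6 hairpins, MIR106A, MIR18B, MIR20B-1, MIR19B-2, MIR92A-2 and MIR363-1, within 917 nt at chrX:110113552-110114468 on the minus strand. MIR92B lay alone at chr4:94624285-94624364 on the minus strand, 380 nt from THBS3. No other annotated gene overlapped any of the 13 hairpins, and the nearest coding genes were GPC5 and CCDC160 for the clusters. The mature miR-19b and miR-92a are encoded identically on chromosome 11 and on X, so their reads cannot be assigned to either cluster.

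The small RNA libraries held 3537619 to 9854086 reads, and 3 reads, the limit used here for a count of 0, were 0.304 to 0.848 RPM. The tissue label was checked with marker genes in the total RNA of the same ovaries, and the LLS ovary ZD8 stood apart. The summed level of 6 luteal genes, which make and regulate progesterone in the corpus luteum, was 9167 to 12190 FPKM in the other 5 ovaries and 123 FPKM in ZD8. The 3 theca genes summed to 468 FPKM in ZD8 against 20.01 to 92.7 FPKM elsewhere, and the 7 oocyte genes to 125 FPKM against 6.49 to 22.7 FPKM. ZD12 was second to ZD8 in both of these sums. Group differences are given with and without ZD8 for the members, the families, the hairpins that could be tested without it and the target list, and the part of these marker genes in the miRNA results was not tested. In whole ovaries, fewer cells of a type and less RNA per cell cannot be told apart.

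The 14 miRNAs made up 0.377% of the small RNA reads in ZD2, 0.576% in ZD3 and 0.707% in ZD12, and 0.596% in ZD5, 0.458% in ZD7 and 0.627% in ZD8. A single member, miR-92a, held 47.4% to 71.9% of them. Levels are in RPM, reads per 1000000 reads of the library, and need no length correction between members, since all are 22 to 24 bases long. Capture and amplification can differ between miRNA sequences, and their part in the order of the members was not tested. By family, the miR-25/92 seed led with 2229 to 5077 RPM summed over its 3 members. The miR-17 seed followed with 785 to 1248 RPM over 4 members, then the miR-19 seed with 444 to 812 RPM over 2. This order of the miR-17 and miR-19 seeds held in 5 of 6 ovaries, and in ZD8 the miR-19 seed was the higher, at 812 against 785 RPM. The miR-18 seed was lowest with 7.14 to 49.8 RPM over 2 members, and its range did not touch that of any other family.

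**Figure D1:**
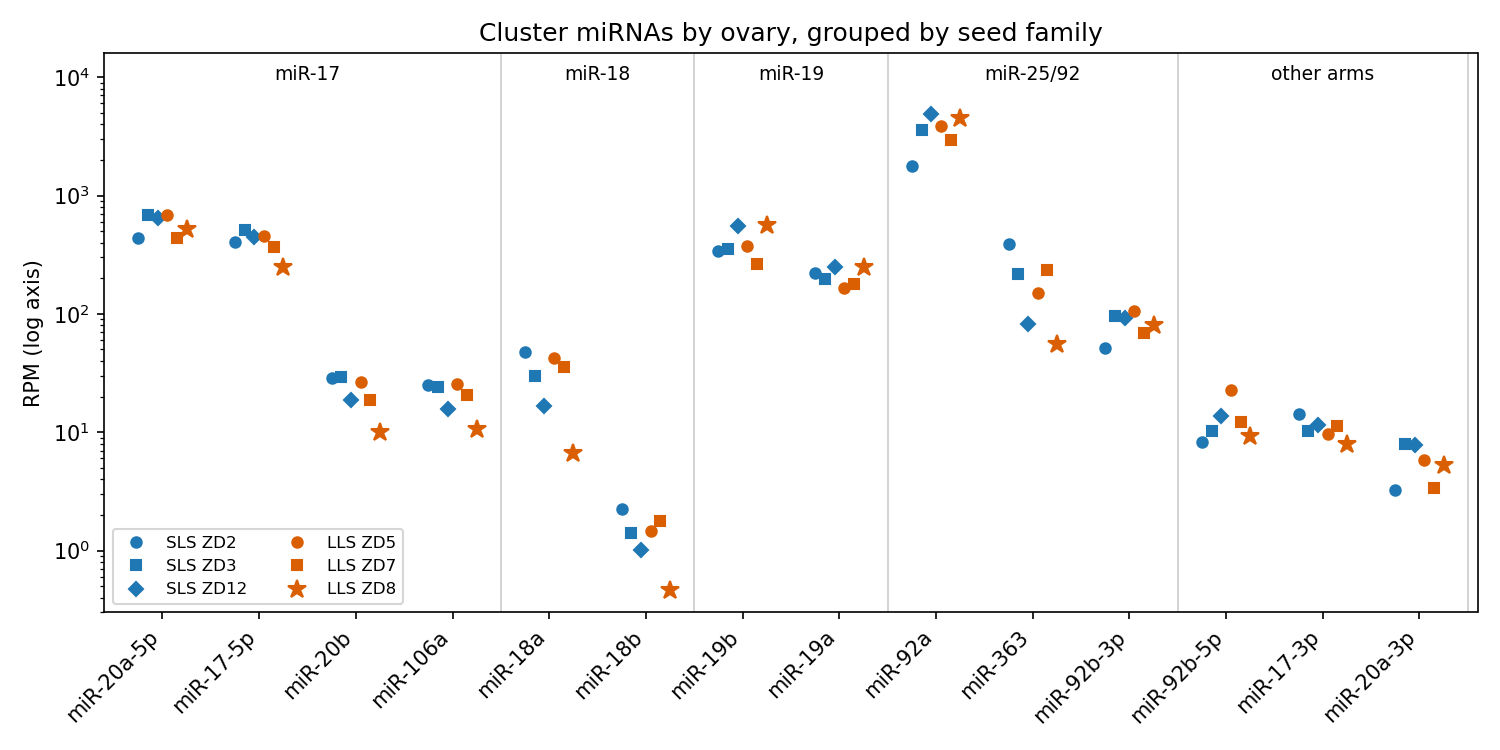
Level of each of the 14 miRNAs in RPM (log axis) in each of the 6 ovaries, grouped by seed family, with SLS ovaries in blue and LLS ovaries in orange and 1 point per library. The SLS and LLS points overlap for all 14, and in RPM ZD8 (star) is the lowest of 6 for 7 of them.

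In the miR-25/92 family, miR-92a was measured at 1785 RPM in ZD2, 3585 in ZD3 and 4903 in ZD12, and at 3894 RPM in ZD5, 2927 in ZD7 and 4503 in ZD8. It was the highest of the 14 in every ovary and ranked between 27 and 45 of the 457 miRNAs. ZD2 was the low ovary and ZD12 and ZD8 the high ones, and the groups overlapped. Its paralog miR-92b-3p, from chromosome 4, lay between 51.9 RPM in ZD2 and 105.6 RPM in ZD5. The ratio of miR-92a to miR-92b-3p moved only from 34.4 in ZD2 to 55.9 in ZD8.

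The third member of that seed, miR-363, lies at the far end of the X cluster and behaved differently. It was at 392 RPM in ZD2, 218 in ZD3 and 82.8 in ZD12, and at 149 RPM in ZD5, 235 in ZD7 and 55.6 in ZD8, a range of 7.05-fold. ZD2 was highest and ZD12 and ZD8 lowest, near the reverse of miR-92a. The ratio of miR-92a to miR-363 accordingly ran from 4.56 in ZD2 to 81.0 in ZD8. A miRNA outside the clusters with the same seed, miR-32, was at 149 RPM in ZD8 and 264 RPM in ZD12 and at 434 to 625 RPM in the other 4 ovaries, so ZD12 and ZD8 were its 2 lowest as well.

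For the miR-17 seed, the family with the best known cell cycle targets, miR-20a-5p was at 438 RPM in ZD2, 686 in ZD3 and 650 in ZD12, and at 678 RPM in ZD5, 437 in ZD7 and 517 in ZD8. From the same cluster, miR-17-5p was at 406 RPM in ZD2, 509 in ZD3 and 446 in ZD12, and at 452 RPM in ZD5, 367 in ZD7 and 247 in ZD8. The 2 were near each other in ZD2 and ZD7 and farthest apart in ZD8, where miR-20a-5p was 2.09 times miR-17-5p. The X members were far lower, with miR-20b at 10.1 to 29.1 RPM and miR-106a at 10.6 to 25.3 RPM, both lowest in ZD8. As each is 1 base from miR-17-5p, their ratios to it are given with that limit: 3.50% to 6.11% for miR-106a and 4.10% to 7.08% for miR-20b.

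Of the miR-19 seed, whose miRNAs are the main drivers of lymphoma in this cluster, miR-19b was at 343 RPM in ZD2, 352 in ZD3 and 557 in ZD12, and at 377 RPM in ZD5, 264 in ZD7 and 564 in ZD8. Its partner miR-19a was at 223 RPM in ZD2, 198 in ZD3 and 251 in ZD12, and at 166 RPM in ZD5, 179 in ZD7 and 248 in ZD8. ZD12 and ZD8 were the 2 highest ovaries for both, 1 from each group. The ratio of miR-19b to miR-19a stayed between 1.47 and 2.27.

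Of the miR-18 seed, miR-18a was at 47.6 RPM in ZD2, 29.7 in ZD3 and 16.5 in ZD12, and at 42.0 RPM in ZD5, 35.4 in ZD7 and 6.68 in ZD8, where it rested on 58 reads. It spanned 7.13-fold, just above miR-363, with which it shared the highest ovary and the 2 lowest. The X copy miR-18b, at 0.460 to 2.23 RPM on 4 to 13 reads per library, was the least abundant of the 14. Its 4 reads in ZD8 have an exact Poisson 95% interval of 0.125 to 1.18 RPM. It stood at 3.47% to 6.90% of miR-18a, from which it differs by 1 base. Counting intervals here cover counting error only.

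The opposite arms were scarce. The arm miR-17-3p, at 7.94 to 14.4 RPM, made up 1.96% to 3.42% of the reads of both arms of its hairpin. For miR-20a-3p, at 3.25 to 7.91 RPM, the share was 0.737% to 1.19%. For miR-92b-5p, at 8.22 to 22.9 RPM, it was 9.65% to 17.8%. In each hairpin the same arm was therefore the major one in all 6 ovaries.

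Members of the 782-nt cluster on chromosome 11 did not keep a fixed ratio from ovary to ovary. Against miR-17-5p at its start, miR-18a ran from 2.70% in ZD8 to 11.7% in ZD2, and miR-19a from 36.7% in ZD5 to 101% in ZD8. The ratio of miR-92a, at its end, to miR-17-5p was 4.39 in ZD2, 7.05 in ZD3 and 10.99 in ZD12, and 8.61 in ZD5, 7.97 in ZD7 and 18.2 in ZD8, though part of miR-92a may come from X. Between the adjacent hairpins of miR-18a and miR-19a, whose mature forms each come from chromosome 11 alone, the ratio of miR-19a to miR-18a was 4.69 in ZD2, 6.67 in ZD3 and 15.2 in ZD12. In the LLS ovaries it was 3.95 in ZD5, 5.06 in ZD7 and 37.2 in ZD8. The 2 largest ratios were thus in ZD8 and ZD12, 1 ovary of each group, and the span was 9.42-fold.

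**Figure D2:**
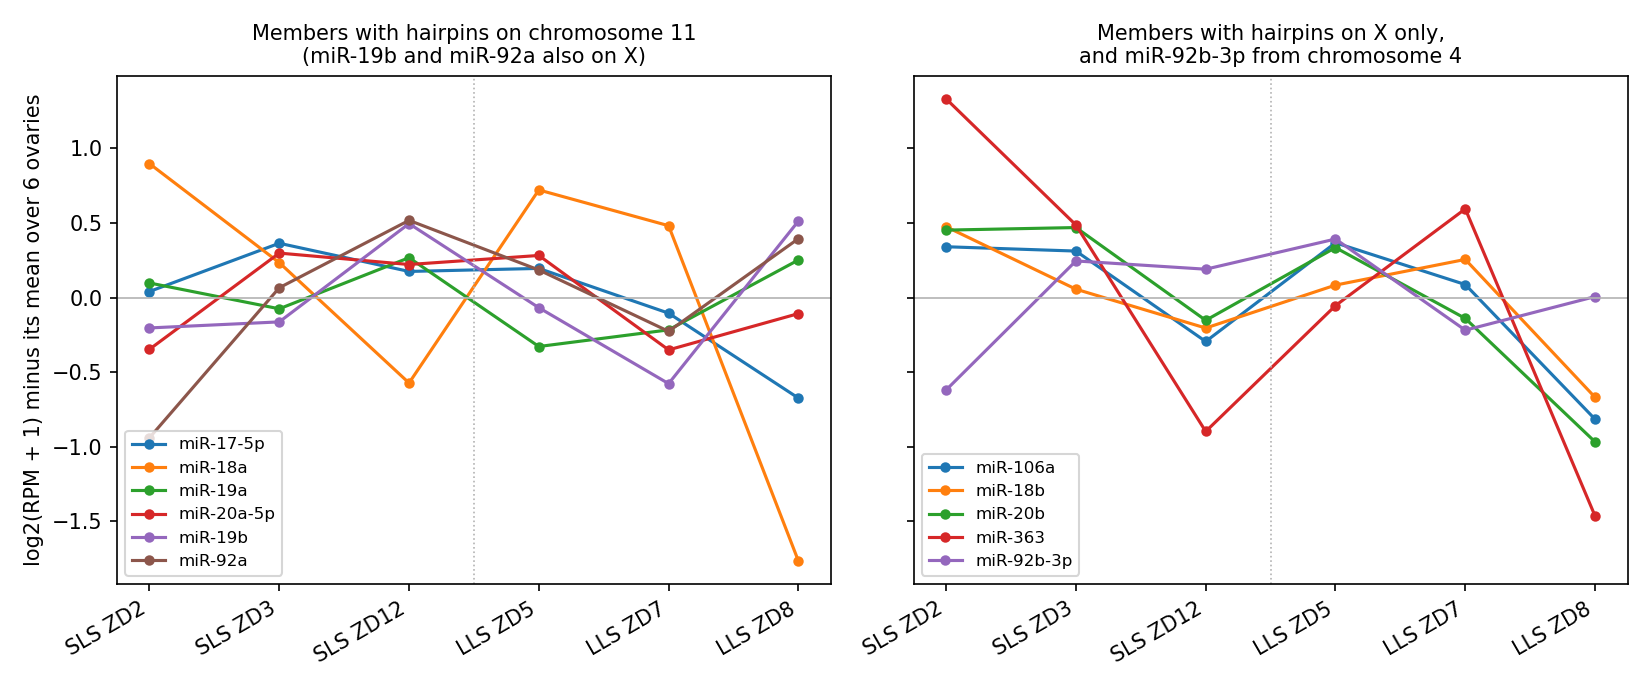
log2(RPM + 1) of each main member minus its own mean over the 6 ovaries, 1 line per miRNA, with members encoded on chromosome 11 on the left and members of X and chromosome 4 on the right. In ZD8 miR-18a and miR-363 fall lowest while miR-19a, miR-19b and miR-92a lie above their means.

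Since 1 ovary stood apart, each member was compared between ZD8 and the median of the other 5 ovaries under 4 scalings, as a description. In RPM the median over all 353 miRNAs tested was itself 0.44 lower in ZD8 on the log2 scale, and it moved to -0.02 after TMM scaling, to 0.11 after quantile normalization and to 0.61 after median centring. In RPM ZD8 was the lowest of 6 for 7 of the 14 members and the highest for 1, against 39.9% of all 353 in which it was lowest. These counts moved with the scaling. The share of all miRNAs in which ZD8 was highest was not computed, so the counts of members highest in ZD8 have nothing to be set against. With TMM ZD8 was lowest for 6 members and highest for 4 (30.03% of all lowest), with quantile normalization lowest for 4 and highest for 3 (24.4%), and with median centring lowest for 1 and highest for 8 (13.0%). For miR-18a the difference was -2.25 in RPM, -1.86 with TMM, -1.52 with quantile normalization and -1.13 with median centring. For miR-363 it was -1.95, -1.44, -1.28 and -0.88 in the same order. Both lay below the median of the other ovaries under all 4 scalings, as did miR-20b, whose difference was -1.30 in RPM and -0.08 with median centring. The 3 members miR-19b, miR-92a and miR-19a lay above it under all 4, at 0.68, 0.33 and 0.33 in RPM. For miR-17-5p the difference was -0.85 in RPM and turned to 0.07 with median centring, and miR-106a and miR-18b turned likewise.

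The ovary order of miR-363 was set beside genes of red blood cells. From high to low it was ZD2, ZD7, ZD3, ZD5, ZD12, ZD8. The gene ALAS2, which starts heme synthesis in red cell precursors, was at 4.57 FPKM in ZD2, 1.09 in ZD3 and 0.459 in ZD12, and at 0.886 FPKM in ZD5, 2.39 in ZD7 and 0.215 in ZD8, the same order. The beta globin gene HBB shared this order. It reached 314 FPKM in ZD2 and 157 FPKM in ZD7, and lay at 63.1 FPKM in ZD3, 54.8 in ZD5 and 52.9 in ZD12. It was lowest in ZD8 with 28.5 FPKM.

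The summed level of the red cell list, in which HBA was not matched and 3 of 4 genes were, was 53.5 to 319 FPKM in SLS and 28.9 to 160 FPKM in LLS ovaries. HBM was listed at 0 in ZD5 and at up to 0.815 FPKM elsewhere. It did not share the order of miR-363, as ZD8, at 0.114 FPKM, was above ZD12, ZD3 and ZD5. The red cell miRNA miR-451, chosen after its values were seen, was at 59104 RPM in ZD2, 15530 in ZD3 and 1900 in ZD12, and at 9369 RPM in ZD5, 7552 in ZD7 and 361 in ZD8. It had the same extremes and shared the low place of ZD12, with a far wider span than miR-363. The part of red blood cells in the level of miR-363 was not tested.

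**Figure D3:**
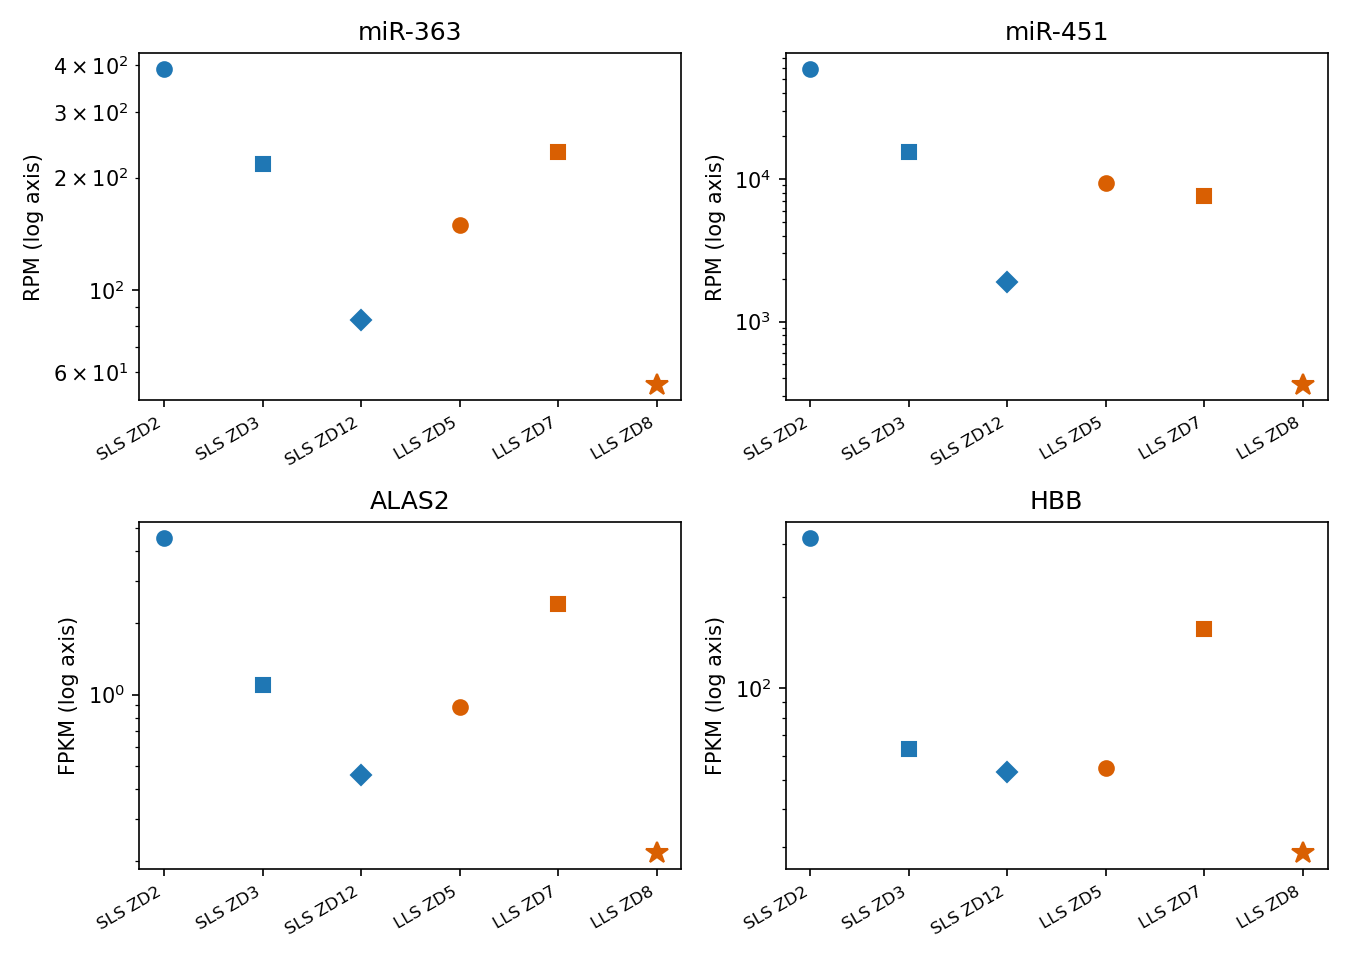
miR-363 and miR-451 in RPM and the red cell genes ALAS2 and HBB in FPKM (log axes), 1 point per ovary, SLS in blue and LLS in orange. ZD2 is highest and ZD8 (star) lowest in all 4 panels, and miR-363, ALAS2 and HBB have the same order of the 6 ovaries.

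The total RNA libraries, whose fragments are several times longer than a mature miRNA, also held reads on the hairpins. Such reads can come from precursor transcripts, and their origin was not tested. On the 6 hairpins of chromosome 11 there were 52 reads in ZD2, 26 in ZD3 and 66 in ZD12, and 8 reads in ZD5, 15 in ZD7 and 74 in ZD8. Scaled to the library these were 0.854, 0.503 and 1.25 RPM in the SLS ovaries and 0.139, 0.246 and 2.29 RPM in the LLS ovaries. The interval of ZD5 was 0.0600 to 0.274 RPM and that of ZD8 1.80 to 2.88 RPM (95%, exact Poisson), so the LLS group held both the lowest and the highest ovary.

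Of these 241 reads, MIR18A and MIR19A held 37.3% each and MIR19B-1 2.07%. A fragment can reach 2 neighbouring hairpins and be counted on both, and the program that counted it is not given in the sources used here. MIR18A had 24 reads in ZD2, 10 in ZD3 and 17 in ZD12, and 4 reads in ZD5, 5 in ZD7 and 30 in ZD8. ZD8 thus had the most total RNA reads at MIR18A and the least mature miR-18a of the 6 ovaries. The hairpins of X and MIR92B had 0 reads in all 6 libraries, which allows up to 0.0493 to 0.0930 RPM by the limit of 3 reads. The exact Poisson 95% intervals of these counts of 0 end at 0.0606 to 0.114 RPM.

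**Figure D4:**
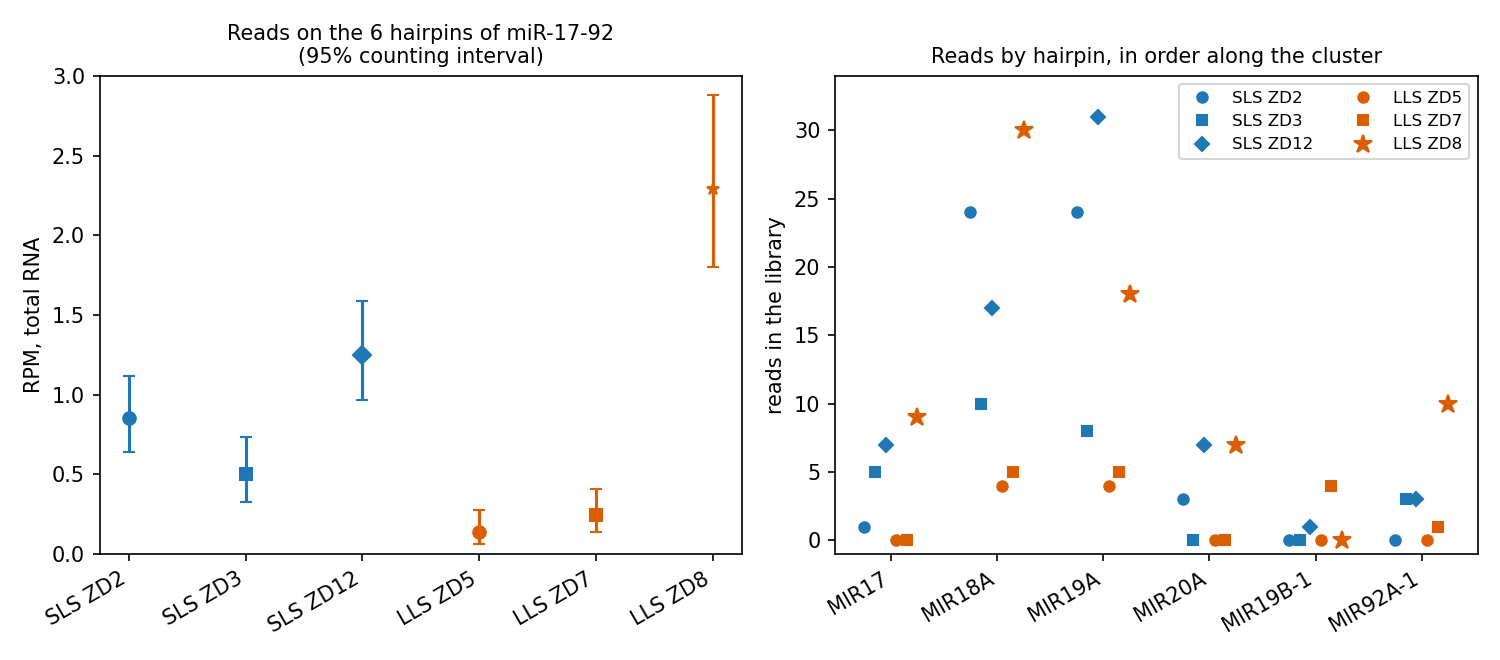
Left, reads of total RNA on the 6 hairpins of the chromosome 11 cluster in RPM, with the exact Poisson 95% interval, by ovary. Right, reads on each hairpin in each library; ZD8 (star) is highest at 2.29 RPM and the LLS ovaries ZD5 and ZD7 are lowest at 0.139 and 0.246 RPM.

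Hairpin levels passed the filter for a test in 3 cases. Between LLS and SLS, MIR17 differed by -0.23 ± 0.62 (log2 FPKM + 1, SE, n = 3 per group), MIR18A by -0.33 ± 0.67 and MIR19A by -0.75 ± 0.61, each with limma's adjusted p = 0.999. Without ZD8 the fitted difference was -1.20 ± 0.28 for MIR18A and -1.42 ± 0.39 for MIR19A, neither called (for MIR19A limma's adjusted p = 0.312). ZD8 thus moved both values by over 1.5 times. Without it MIR18A passed the filter of 1 FPKM in 3 libraries only through the SLS ovaries, where it was high, with 0.755 FPKM in ZD5 and 0.893 FPKM in ZD7, so its value there is a description and supports no difference. MIR19A also met the filter through the SLS ovaries alone, where it was high, at 1.89 to 7.14 FPKM. It was at 0.847 FPKM in ZD5 and just reached the filter in ZD7, on 4 and 5 reads. Its value without ZD8 is therefore likewise a description and supports no difference. MIR17 was listed at 0 in ZD5 and ZD7 and did not pass the filter without ZD8.

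The comparison the study was made for, LLS against SLS, called 0 of the 14 members, where a call needed more than 2-fold change and a p under 0.05 after Benjamini-Hochberg adjustment. Over all 353 miRNAs tested, limma called 0 (percent called 0), and 0 had an unadjusted p under 0.05. On the recovered reads edgeR's quasi-likelihood test, its exact test and DESeq2 called 0 as well, with 4, 2 and 7 miRNAs at an unadjusted p under 0.05. Groups did not overlap for 0 of the 14 members, against 10 of 353 miRNAs (2.83%).

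The members' log2 fold changes lay between -0.61 and 0.36, with limma's adjusted p = 0.997 for each. They were below 0 for 11 and above 0 for 3, with a median of -0.23, while 181 of 353 miRNAs (51.3%) were below 0 with a median of -0.01. For miR-363 the log2 fold change was -0.61 ± 0.71 (SE) with a 95% interval of -2.24 to 1.01, and for miR-18a it was -0.37 ± 0.75 with an interval of -2.08 to 1.33. The spread between ovaries was narrower for miR-17-5p, at -0.39 ± 0.38 with an interval of -1.25 to 0.47, and for miR-19a, at -0.19 ± 0.37 with an interval of -1.04 to 0.65. For miR-92a the value was 0.24 ± 0.45 with an interval of -0.80 to 1.27. A 2-fold change in either direction lay within the intervals of miR-18a and miR-363, a 2-fold fall within those of miR-17-5p and miR-19a, and a 2-fold rise within that of miR-92a.

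By family, the miR-17 seed summed to 1092 ± 178 RPM in SLS and 937 ± 214 RPM in LLS (mean, SD, n = 3). The miR-19 seed summed to 642 ± 145 RPM in SLS and 599 ± 191 RPM in LLS. The miR-25/92 seed summed to 3735 ± 1431 RPM in SLS and 4006 ± 715 RPM in LLS. The miR-18 seed summed to 32.8 ± 16.2 RPM in SLS and 29.3 ± 19.4 RPM in LLS. In each family the difference of the means was smaller than the SD of either group, and no test was made on these sums. On the log2 scale the difference between LLS and SLS moved from -0.38 to 0.40 without ZD8 for the miR-18 seed, and from -0.12 to -0.36 for the miR-19 seed. It moved from -0.23 to -0.12 for the miR-17 seed and from 0.17 to 0.05 for the miR-25/92 seed.

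Without ZD8 the members' log2 fold changes were below 0 for 8 and above 0 for 6 with a median of -0.06, beside 37.6% of 351 miRNAs below 0 and a median of 0.16. In this fit miR-18a turned to 0.42 ± 0.52, miR-106a to 0.11 ± 0.44 and miR-18b to 0.06 ± 0.39, and miR-363 moved to -0.04 ± 0.63, with limma's adjusted p from 0.952 to 0.995 over these and the other members. For miR-17-5p the value moved from -0.39 to -0.15, for miR-20b from -0.51 to -0.16 and for miR-17-3p from -0.29 to -0.17. For miR-19b it moved from -0.09 to -0.37, for miR-20a-3p from -0.27 to -0.34 and for miR-20a-5p from -0.12 to -0.09. Of the 3 members above 0, miR-92a moved from 0.24 to 0.10, miR-92b-3p from 0.12 to 0.15 and miR-92b-5p from 0.36 to 0.62. The groups then did not overlap for miR-19a, with SLS ovaries at 198 to 251 RPM and ZD5 and ZD7 at 166 and 179 RPM. That was 1 of 14 members against 71 of 351 miRNAs (20.2%) without ZD8. Its log2 fold change there was -0.37 ± 0.35 (adjusted p = 0.952, limma).

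**Figure D5:**
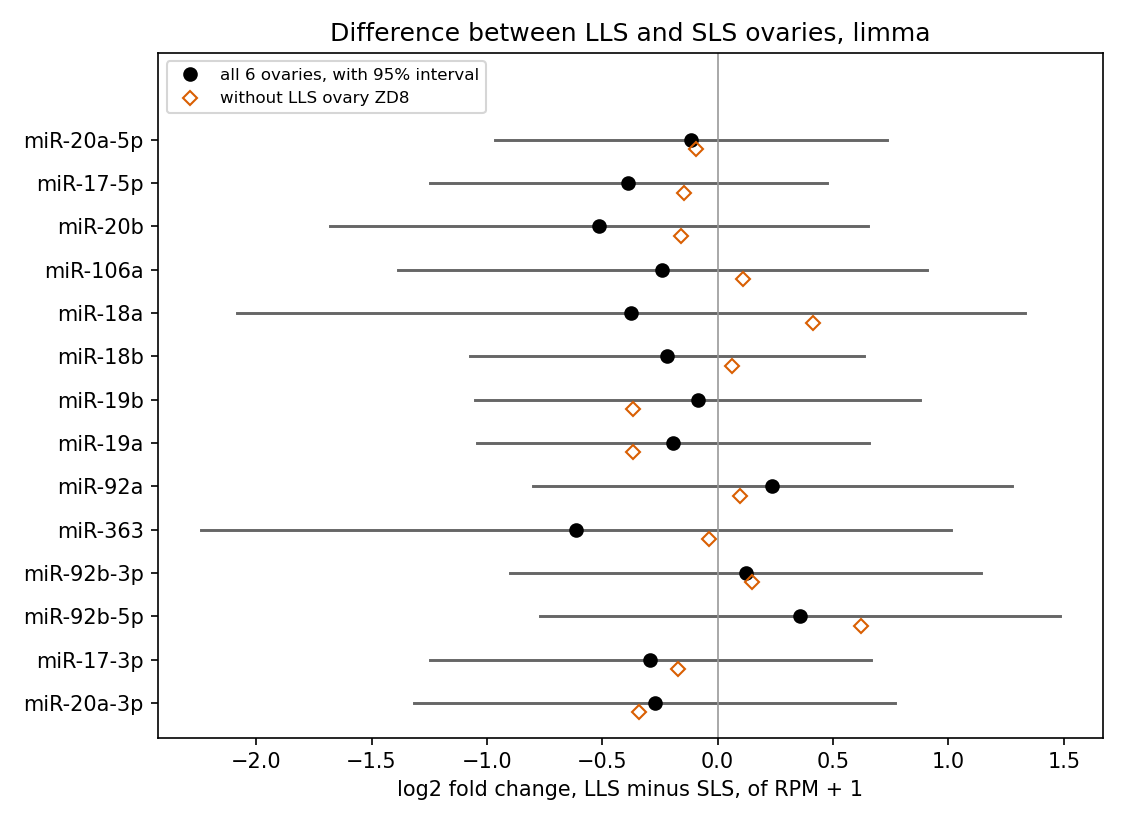
log2 fold change of LLS minus SLS for each of the 14 members in limma's fit of all 6 ovaries (black, with its 95% interval) and without ZD8 (open orange diamonds). Every interval contains 0, and miR-18a, miR-18b and miR-106a change sign without ZD8.

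Of 17 ratios between members, 1 did not overlap between the groups, that of miR-20b to miR-106a, which lie on either side of MIR18B on X. It was 1.16 in ZD2, 1.20 in ZD3 and 1.19 in ZD12, and 1.04 in ZD5, 0.907 in ZD7 and 0.957 in ZD8, picked out after its values were seen. Each ratio rests on 86 to 183 reads of either miRNA, and the highest, in ZD3, has an exact 95% interval of 0.891 to 1.61 that takes in all 5 others. An exact permutation test of 3 ovaries against 3 cannot go below p = 0.1.

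The miRNAs with the most similar profiles were sought by the root mean square difference of log2(RPM + 1), centred on its mean over the 6 ovaries, from each family's summed level. For the miR-25/92 seed they were miR-30c-5p at 0.06, miR-28-3p at 0.07 and miR-361-5p at 0.13, against a median of 0.61 over the miRNAs outside the clusters. For the miR-19 seed they were miR-214-5p at 0.07, miR-149 at 0.14 and miR-374a-5p at 0.14, with a median of 0.63. The miR-17 seed was nearest to miR-4334-3p at 0.08, miR-339-3p at 0.13 and miR-339 at 0.15, with a median of 0.51. The miR-18 seed was farther from its nearest, miR-425-5p at 0.20, miR-32 at 0.23 and miR-6782-3p at 0.25, with a median of 0.86. The nearest, miR-425-5p, was at 126 RPM in ZD8 and 265 RPM in ZD12 and at 550 to 836 RPM in the other 4 ovaries.

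A list of 27 genes reported as targets of these miRNAs in mammals was compared in the total RNA. It holds cell cycle regulators (CDKN1A, CDKN1C, RB1, RBL2, E2F1, E2F2, E2F3, CCND1), genes of survival and growth signalling (BCL2L11, STAT3, HIF1A, TXNIP, FBXW7, ULK1), TGF-beta and BMP signalling (TGFBR2, SMAD2, SMAD4, SMAD7, BMPR2), matrix and vessel genes (THBS1, CTGF, ITGA5) and transcription regulators (KLF2, KLF4, ESR1, NCOA3, KAT2B). All 27 were tested, and limma called 0, as it did among all 12260 genes (percent called 0), with 0 of the 27 and 216 of all genes (1.76%) at an unadjusted p under 0.05. Without ZD8, 20 genes were called, and again 0 of the 27. Their groups overlapped in all 27, against 628 of 12260 genes (5.12%) that did not overlap. The log2 fold change was above 0 for 17 and below 0 for 10, beside 47.4% of all genes below 0, and ran from -0.81 (ITGA5, a fibronectin receptor subunit) to 0.48 (BCL2L11, which promotes cell death), with a median of 0.17 beside 0.02 over all genes. This depended on ZD8, without which 15 of the 27 changed sign. Then 10 were above 0 and 17 below, beside 65.8% of all genes below 0, and the median was -0.09 beside -0.10. ITGA5 moved to -0.10 and BCL2L11 to -0.21, and the groups did not overlap for 4 of the 27 beside 19% of all genes.

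Among the targets, ZD8 was the highest of 6 ovaries for 14 of the 27 and the lowest for 7, or 51.9% and 25.9%, beside 44.6% and 26.3% of all genes tested. Examples chosen after their values were seen are BCL2L11, at 18.1 FPKM in ZD8 and 3.32 to 5.72 FPKM in the other 5, and KAT2B, a histone acetyltransferase, at 27.8 FPKM against 7.11 to 13.0 FPKM. In the other direction, CDKN1A, which halts the cell cycle, had 22.2 FPKM in ZD8 and 49.5 to 81.3 FPKM elsewhere, and CCND1, which drives it, had 8.94 against 22.3 to 32.7 FPKM. All 4 hold a match to the miR-17 seed, described next.

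Matches to bases 2 to 8 of each family were searched on the transcript strand in the longest annotated 3′ UTR of every gene, 18167 in all (RefSeq, Sscrofa11.1). GCACTTT, for the miR-17 seed, was held by 16 of the 27 (59.3%) and by 13.8% of all genes, and GTGCAAT, for the miR-25/92 seed, by 10 (37.0%) and 7.15%. TTTGCAC, for the miR-19 seed, was held by 8 (29.6%) and 12.8%, and GCACCTT, for the miR-18 seed, by 4 (14.8%) and 8.74%. The 27 UTRs were longer, with a median of 1526 nt against 942 nt. Among UTRs of at least 1526 nt, the shares were 12 of 14 targets (85.7%) and 29.0% of genes for GCACTTT, 5 of 14 (35.7%) and 15.2% for GTGCAAT, 7 of 14 (50%) and 26.6% for TTTGCAC, and 3 of 14 (21.4%) and 18.4% for GCACCTT, where the shares were closest. The motif TTTGCAC and GCACTTT or GCACCTT can share the bases GCAC, and since the list was made of reported targets a high share says nothing further about these ovaries.

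The sites below, from the same reference, are shown because they lie in the targets named above or put the matches of 2 families side by side. Capitals mark the seed match, and the chromosome positions are those of the 27 bases printed, the match with 10 bases on each side. CDKN1A had 3 matches to the miR-17 seed, of which the first match starts at base 460 of its UTR and is shown at chr7:32362721-32362747 on the plus strand. BCL2L11 had 2 to the miR-25/92 seed, of which the first lies at chr3:45158287-45158313 on the minus strand. In CTGF, a matrix regulator, the matches to the miR-19 and miR-18 seeds overlap at chr1:31677642-31677668 and chr1:31677645-31677671 on the plus strand.
CDKN1A, miR-17 seed: ttaacagataGCACTTTgaagggggcc
BCL2L11, miR-25/92 seed: aaacgtctgtGTGCAATtattgtttcc
CTGF, miR-19 seed: aagttacatgTTTGCACctttctagtt
CTGF, miR-18 seed: ttacatgtttGCACCTTtctagttgaa

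CTGF itself was at 127 FPKM in ZD2, 39.6 in ZD3 and 40.2 in ZD12, and at 33.3 FPKM in ZD5, 77.2 in ZD7 and 47.4 in ZD8. It was highest in ZD2 and ZD7, 1 ovary from each group, and its log2 fold change was -0.24 ± 0.51 (SE).

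MYC, which activates transcription of the clusters, was at 26.6 FPKM in ZD2, 19.98 in ZD3 and 15.6 in ZD12, and at 15.5 FPKM in ZD5, 19.5 in ZD7 and 29.2 in ZD8. Its relative MYCN was at 1.06 FPKM in ZD2, 0.992 in ZD3 and 1.80 in ZD12, and at 1.37 FPKM in ZD5, 2.16 in ZD7 and 3.33 in ZD8. Both were highest in ZD8, and their groups overlapped. The log2 fold changes were 0.03 ± 0.33 for MYC and 0.50 ± 0.32 for MYCN, each with limma's adjusted p = 0.999, and -0.21 and 0.28 without ZD8. MIR17HG, the host transcript of the chromosome 11 cluster in other mammals, was not matched by name and was not analysed here.

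MCM7, a subunit of the replication helicase and in mammals the host gene of the miR-106b-25 cluster, was at 25.4 FPKM in ZD2, 20.2 in ZD3 and 31.5 in ZD12, and at 15.9 FPKM in ZD5, 20.4 in ZD7 and 42.2 in ZD8. Its log2 fold change was -0.07 ± 0.39 with limma's adjusted p = 0.999, and -0.47 without ZD8. It was highest in ZD8, whereas 0 of the 5 other helicase subunits, MCM2 to MCM6, were. The groups did not overlap for MCM3, at 13.3 to 16.2 FPKM in SLS and 7.79 to 13.1 FPKM in LLS, and for MCM4, at 14.6 to 16.9 FPKM in SLS and 7.90 to 12.7 FPKM in LLS. That was 2 of 5 beside 5.12% of all genes, with log2 fold changes of -0.50 ± 0.28 and -0.57 ± 0.27 and limma's adjusted p = 0.999 for both. Without ZD8 the groups did not overlap for 3 of the 5, MCM5 added, beside 19% of all genes.

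Genes that mark dividing cells were also compared. The 5 genes MKI67, TOP2A, CCNB1, CDK1 and BUB1 summed to 47.6 to 67.4 FPKM in SLS and 26.1 to 41.5 FPKM in LLS, lowest in ZD8. The groups did not overlap for 4 of the 5, all but TOP2A, beside 5.12% of all genes, and limma called 0, with 2 at an unadjusted p under 0.05. Without ZD8 it was again 4 of the 5, beside 19% of all genes. The 5 granulosa genes also separated in their sum, at 384 to 768 FPKM in SLS and 127 to 296 FPKM in LLS, lowest in ZD8. That sum was mostly INHA, the inhibin alpha subunit, at 376 to 726 FPKM in SLS and 66.4 to 285 FPKM in LLS. INHA was itself lowest in ZD8, and the groups overlapped for the other 4. Of these, FSHR, AMH and FOXL2 ran the other way and were each highest in ZD8, and CYP19A1 was under the filter. The 6 endothelial genes summed to 128 FPKM in ZD8 and 274 to 400 FPKM in the other ovaries. PECAM1 alone did not overlap, at 87.7 to 105 FPKM in SLS and 25.4 to 86.0 FPKM in LLS. Of the 6 luteal genes LHCGR alone did not, at 27.8 to 70.5 and 10.4 to 24.2 FPKM. Each was 1 of 6, beside 5.12% of all genes, and neither was called. Without ZD8 it was 3 of 6 in each list, beside 19%. PECAM1 and LHCGR were lower in LLS there, while VWF, KDR, SCARB1 and PTGFR were higher. The smooth muscle sums were 434 to 1176 FPKM in SLS and 224 to 668 FPKM in LLS. Within this list MYH11 was at 190 FPKM in ZD8 and 15.5 to 47.1 FPKM in the other ovaries. DES was also highest in ZD8, while ACTA2 and CNN1 were not. With all 6 ovaries the log2 fold change was 0.28 for MYH11 and below 0 for the other 3. Without ZD8 the groups did not overlap for 4 of the 4 smooth muscle genes, all lower in LLS with a median log2 fold change of -1.08, beside 19% of all genes. The leukocyte sums were 12.3 to 17.2 and 11.9 to 22.4 FPKM, and the epithelial sums 4.61 to 37.7 and 12.7 to 31.1 FPKM. Among the epithelial genes EPCAM, an adhesion molecule, did not overlap, at 0.312 to 1.28 FPKM in SLS and 2.31 to 27.8 FPKM in LLS. Its log2 fold change was 2.66 ± 0.70, with limma's adjusted p = 0.999. The rest of the list did not share this rise. KRT18, which was under the filter, did not overlap either but was lower in LLS, at 0.237 to 6.30 FPKM in SLS and 0 to 0.151 FPKM in LLS. The log2 fold change was -1.16 for KRT8 and -0.10 for CDH1. Without ZD8 EPCAM was called, at 3.47 (limma's adjusted p = 0.022), while KRT8 was at -1.88 and CDH1 at -0.68. The groups then did not overlap for 2 of the 3 tested, EPCAM and KRT8, in opposite directions, beside 19% of all genes. The part of all these lists in the levels of the cluster miRNAs was not tested.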

How the data were processed

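Ovaries of 3 SLS and 3 LLS sows were grouped by the submitters' labels. Columns of both tables carry the ovaries' names, and 1 name was read as 1 ovary in both. The members and gene lists were chosen with earlier results of these data known. For total RNA, the authors trimmed reads and mapped them with HISAT2 to Sscrofa11.1 and deposited FPKM values. For small RNA, made with an Ion Total RNA-Seq kit after size selection on a gel, the submitters' processing notes name BWA, and the authors deposited reads per 1000000 (RPM) of the library total, labelled TPM. The miRNA annotation, the counting program and its treatment of mismatches and of reads matching several hairpins are not given in the sources used here. All 12 value columns were used, and 0 were left unmapped.

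All 2618 miRNA values above 0 gave whole reads (100%, within 0.001 of a read). The values of 315 miRNA genes in the FPKM table gave whole reads with the annotated hairpin length in 631 of 631 cases. The depth was 3537619 to 9854086 small RNA reads, of which 97.6% to 98.7% lay on listed miRNAs, and 32272803 to 60903268 total RNA reads. Raw reads were not used.

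The main test was limma 3.58.1 (R 4.3.3) with trended variance, run on log2 of the value plus 1 where 3 or more libraries reached 1 RPM or 1 FPKM, adjusted by Benjamini-Hochberg over 353 miRNAs or 12260 genes. A feature was called past 2-fold change with an adjusted p under 0.05. The fits were tested on simulated data. Alternatives were edgeR 4.0.16 and DESeq2 1.42.0 on the recovered miRNA reads, other pseudocounts, filters and scalings, array weights, and leaving out each ovary. The edgeR fit without ZD8 was added after seeing the data. All members are named, with values in every ovary for those of at least 100 RPM on average and for miR-18a, added as it had the widest span. Of the target, regulator and MCM lists, MYC, MYCN, MCM7 and genes whose groups did not overlap or that passed 1 in absolute log2 fold change are named, and further names were chosen after their values were seen. One further target was left out of the list of 27 and is not reported here. All marker lists are reported. Sequences and positions are from the deposited table and from RefSeq.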

Additional observations from a re-analysis of the deposited data

How the results depend on the processing

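No paired analysis was possible because the labels pair no sow of one group with a sow of the other. The count of called miRNAs was 0 under every alternative run, with 0 to 13 at an unadjusted p under 0.05, and 0 targets of the list were called under any. The count of called genes was 13 with array weights and from 0 to 20 with 1 ovary left out, the 20 without ZD8. Of 166 values of the 14 members under 12 alternatives, 160 kept their direction. The 6 that turned were miR-19b with DESeq2 (0.031), miR-18b with quantile normalization (0.022), miR-18a with array weights (0.24) and, in edgeR's fit without ZD8, miR-92a (-0.15), miR-18a (0.15) and miR-92b-3p (-0.014). With 1 ovary left out, 7 members turned in at least 1 fit: miR-19b from -0.37 to 0.18, miR-92a from -0.17 to 0.55, miR-20a-5p from -0.32 to 0.030, miR-18b from -0.40 to 0.061, miR-106a from -0.48 to 0.11, miR-18a from -0.83 to 0.42 and miR-92b-3p from -0.16 to 0.27. Of those that kept their sign, miR-17-5p ranged from -0.58 to -0.15 and miR-363 from -1.22 to -0.04, both nearest 0 without ZD8. The value of miR-92b-5p ranged from 0.007 without ZD5 to 0.62 without ZD8. Over these fits the smallest adjusted p of a member was 0.943. MCM7 turned with quantile normalization (0.060), was at -0.54 with array weights (limma's adjusted p = 0.461) and ranged from -0.47 to 0.21 with 1 ovary left out. MYC turned with array weights (-0.13) and ranged from -0.21 to 0.23 with 1 ovary left out, and hairpin MIR18A ranged from -1.20 to 0.13. The summed families moved by less than 1 SD between ovaries, yet 3 of 4 changed sign with 1 ovary left out: miR-18 from -0.82 to 0.40, miR-19 from -0.36 to 0.072 and miR-25/92 from -0.17 to 0.43, while miR-17 ranged from -0.41 to -0.12. The causes were not tested. The low counts of miR-18b and of the precursor hairpins limit what can be seen.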
